A study of Mus musculus with 8 samples.

Results

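The genes examined here encode complement and clotting proteins that the liver secretes into blood, with their regulators, the fibrinolytic proteins and the kininogens. They were taken from a list of 45 gene symbols, matched to Ensembl identifiers through the GENCODE M21 annotation of GRCm38, with complement component 5 listed under its mouse name, *Hc*. A row of counts was found for 44 of the 45 among 45706 identifiers. *Klkb1* was not analysed here. All 44 passed the filter on low counts, as did 15491 identifiers in all.

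The samples were 8 livers of C56B6/J mice, profiled by poly(A) RNA-seq, with 4 in each group. Male mice received an adeno-associated virus by tail vein at 6 weeks of age and started a high-fat diet (60% of calories from fat) 4 weeks later, which they ate for 12 weeks. The virus of the *Srsf10-kd* group carried a miR-30-based hairpin against *Srsf10*, which encodes a splicing and polyadenylation factor, and that of the *Ctrl* group carried a control hairpin. Both groups therefore carried virus and hairpin, both ate the same diet, and the vector's chicken β-actin promoter is active in many cell types.

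Complement is a cascade of plasma proteases and binding proteins: lectins or antibodies recognise a surface, proteases cleave C4, C2 and C3, and the terminal components insert a pore. Coagulation runs in a similar relay, from zymogens cut in turn to thrombin, which turns fibrinogen into fibrin; anticoagulants restrain it and plasmin dissolves the clot. Hepatocytes make most of these proteins, several of which are acute phase reactants, and many of the genes carry binding sites for factors such as C/EBP.

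The promoters of the 3 fibrinogen genes are shown because these were among the most abundant transcripts of the set and differed little between groups, and those of *F5* and *Mbl2* because these genes led the differences in the lower and the higher direction among well-expressed members. Each window runs from 250 bases before to 50 after the RefSeq start on GRCm38.p6, 5′ to 3′ on the strand of the gene. Capitals mark the letters of any of 4 motifs, searched on both strands: an HNF4 site (CAAAGTCC), a C/EBP site (TTGCNNAA), an IL-6 response element (CTGGGAA) and a TATA box (TATAAA).
*Fga* (chr3:83025903-83026202, plus strand): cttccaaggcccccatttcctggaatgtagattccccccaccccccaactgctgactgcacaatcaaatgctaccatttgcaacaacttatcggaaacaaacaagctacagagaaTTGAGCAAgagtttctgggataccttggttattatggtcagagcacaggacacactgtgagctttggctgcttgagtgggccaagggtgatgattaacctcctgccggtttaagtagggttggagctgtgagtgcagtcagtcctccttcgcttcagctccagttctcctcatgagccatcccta
*Fgb* (chr3:83049814-83050113, minus strand): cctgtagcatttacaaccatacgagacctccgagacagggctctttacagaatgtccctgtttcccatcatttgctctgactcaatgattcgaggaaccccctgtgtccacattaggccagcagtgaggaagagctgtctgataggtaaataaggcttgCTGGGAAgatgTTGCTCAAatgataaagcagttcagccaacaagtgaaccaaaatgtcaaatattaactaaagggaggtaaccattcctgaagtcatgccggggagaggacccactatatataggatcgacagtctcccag
*Fgg* (chr3:83007474-83007773, plus strand): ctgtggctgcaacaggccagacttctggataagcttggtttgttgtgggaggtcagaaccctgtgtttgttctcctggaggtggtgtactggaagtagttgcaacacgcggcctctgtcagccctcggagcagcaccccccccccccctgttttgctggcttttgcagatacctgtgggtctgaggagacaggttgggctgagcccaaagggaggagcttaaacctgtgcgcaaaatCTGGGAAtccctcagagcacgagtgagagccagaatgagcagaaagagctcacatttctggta
*F5* (chr1:164151585-164151884, plus strand): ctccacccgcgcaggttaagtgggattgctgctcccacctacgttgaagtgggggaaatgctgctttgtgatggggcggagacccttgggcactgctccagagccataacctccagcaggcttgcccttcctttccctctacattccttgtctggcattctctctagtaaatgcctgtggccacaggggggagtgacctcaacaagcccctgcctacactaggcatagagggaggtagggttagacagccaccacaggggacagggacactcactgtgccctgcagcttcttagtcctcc
*Mbl2* (chr19:30232678-30232977, plus strand): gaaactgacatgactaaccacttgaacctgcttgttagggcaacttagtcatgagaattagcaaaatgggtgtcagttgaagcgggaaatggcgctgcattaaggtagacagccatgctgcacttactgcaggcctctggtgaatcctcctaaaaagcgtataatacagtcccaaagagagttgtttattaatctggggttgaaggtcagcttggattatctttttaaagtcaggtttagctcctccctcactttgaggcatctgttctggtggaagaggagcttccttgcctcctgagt

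The *Fga* window held a C/EBP site, the *Fgb* window held a C/EBP site and an IL-6 response element, and the *Fgg* window held the IL-6 response element alone. None of the 4 motifs stood in the *F5* or *Mbl2* window. Windows were at hand for 35 of the 44 genes (37 windows, since a gene can have more than 1 start). The C/EBP letters were in 12 of the 37 (32.4%) and in 9.0% of 14184 windows of all tested genes, and the IL-6 response element was in 8 (21.6%) and in 11.1% of all. The TATA box was in 4 (10.8%) against 8.1%, and the HNF4 letters were in none, against 1.6%. The C/EBP letters were found near *C1ra*, *C1s1*, *C3*, *C9*, *Cpb2*, *F11*, *F9*, *Fga*, *Fgb*, *Hrg*, *Kng2* and *Serpinc1*. A match is a stretch of letters and not a measured binding site.

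Library totals ran from 50456404 to 59697241 counts. Levels are given as CPM (read counts per 1000000) on library sizes scaled by the trimmed mean of M values. *Srsf10* itself was 34.3, 34.0, 41.0 and 36.5 CPM in *Srsf10-kd* livers 1 to 4 and 31.6, 33.7, 35.3 and 30.9 CPM in *Ctrl* livers 1 to 4, a log2 fold change of 0.15 (SE 0.10, edgeR adjusted p = 0.378). The targeted transcript was thus not lower in the group labelled *Srsf10-kd*, so that group is called the *Srsf10-kd*-labelled livers, and every direction below is that of the label. Hepatocyte markers such as *Alb* and *Apoa1* were high in all 8 livers, and the 12 markers summed to 99836 to 117869 CPM in the *Srsf10-kd*-labelled livers and 83369 to 110549 CPM in *Ctrl*. Most of that sum was *Alb*, at 66925 to 83145 CPM and 45844 to 78039 CPM. In value 4 of the 12 were higher and 8 lower, and 2 had an unadjusted edgeR p under 0.05, where 21.8% of all tested genes did. These were *Apob* (log2 fold change -0.93, edgeR adjusted p = 0.115) and *Trf* (1.07, edgeR adjusted p = 0.133), both without overlap of the groups. In bulk liver, fewer cells of a type and less RNA per cell cannot be told apart.

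The set made up 3.63%, 3.39%, 2.85% and 3.18% of all counts in *Srsf10-kd*-labelled livers 1 to 4, and 3.70%, 3.46%, 3.30% and 3.71% in *Ctrl* livers 1 to 4. The ranges overlapped, with *Srsf10-kd*-labelled liver 3 lowest. Per kb of transcript, *Fgg* was the highest member (mean of the 8 livers 1361 CPM per kb), followed by *Fga* (1166), *Vtn* (1025), *C3* (927) and *Fgb* (814). *Plg* (722), *Kng1* (708) and *F2* (498) came next. At the other end stood *Cfp* (11.5), *Cfd* (8.74), *C2* (7.02), *Masp1* (5.86) and *Cfb* (1.94). Of these, properdin (*Cfp*) is mainly a product of myeloid cells and adipsin (*Cfd*) of adipocytes. The low places of *C2* and *Cfb* are uncertain, since 46.9% and 79.5% of their exon bases also belong to other genes.

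**Figure D1:**
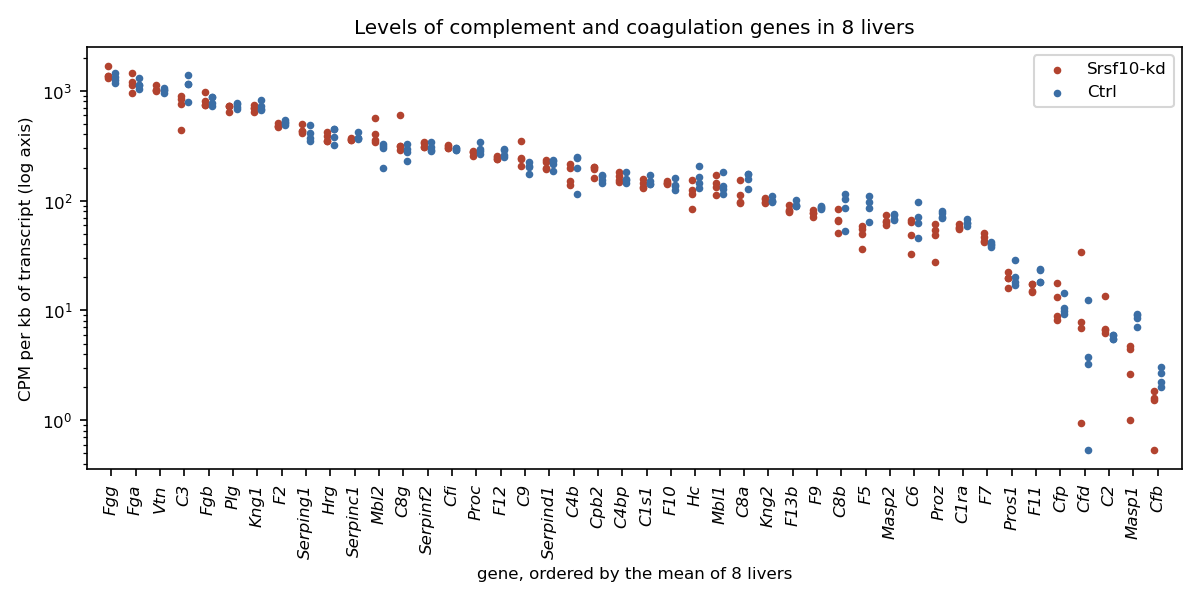
Level of each of the 44 genes in CPM per kb of transcript (vertical log axis), 1 point per liver, red for *Srsf10-kd* and blue for *Ctrl*, ordered from *Fgg* (1361 CPM per kb) to *Cfb* (1.94). For most genes the points of both groups lie on top of each other, while *Cfd* spreads widely and *Masp1* separates.

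After Benjamini-Hochberg adjustment in edgeR, no member was under 0.05 (0 of 44, where 11 of 15491 genes, 0.0710%, did). The lowest adjusted p of the set was that of *F5*, 0.115. At an unadjusted p under 0.05 there were 9 of the 44 (20.5%), against 21.8% of all tested genes. Of these, 7 were lower in the *Srsf10-kd*-labelled livers (*Masp1*, *C3*, *Cfb*, *C8a*, *F5*, *F11* and *Proz*, where 10.6% of all genes were lower at this limit) and 2 were higher (*Mbl2* and *C2*, where 11.2% of all genes were higher). The share of the set below 0.05 was thus no larger than in the transcriptome. The 9 became 5 without *Srsf10-kd*-labelled liver 3, and also 5 without *Ctrl* liver 1 and 5 without *Ctrl* liver 4. Without *Srsf10-kd*-labelled liver 3 those left were *Masp1*, *Cfb*, *F5*, *F11* and *Proz*.

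Other tools moved the adjusted count. DESeq2 put 2 members under an adjusted p of 0.05, *F5* (0.00504) and *Masp1* (0.00966), where 5.27% of all genes were called. The limma-voom fit with sample quality weights called 4, *F5* (0.00813), *Masp1* (0.0109), *Proz* (0.0288) and *C3* (0.0477), where 11.7% of all genes were called. All 4 were lower in the *Srsf10-kd*-labelled livers. *F5* also reached an edgeR adjusted p of 0.0361 when *Ctrl* liver 3 was left out.

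The values of the 2 groups did not overlap for 10 members (22.7%), where 14.3% of all tested genes did not overlap. The *Srsf10-kd*-labelled livers were all below *Ctrl* for *Masp1*, *Cfb*, *F5*, *F9*, *F11* and *Proz*, and all above for *Mbl2*, *C2*, *Cfi* and *F7*. For such a gene the exact permutation test over the 70 ways of splitting 8 livers gives p = 0.0286, the smallest value it can reach. Across the set 18 members were higher and 26 lower, and the median difference on the log2 scale was -0.07 (all genes 0.01). Most differences were small: 28 members (63.6%) lay within 0.2 of 0 on the log2 scale, as did 43.3% of all genes. The set also varied less between livers of a group than genes in general, with a median within-group SD of 0.16 against 0.26 on the log2 scale. Most members were abundant transcripts, and neither comparison with all genes was matched for level.

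**Figure D2:**
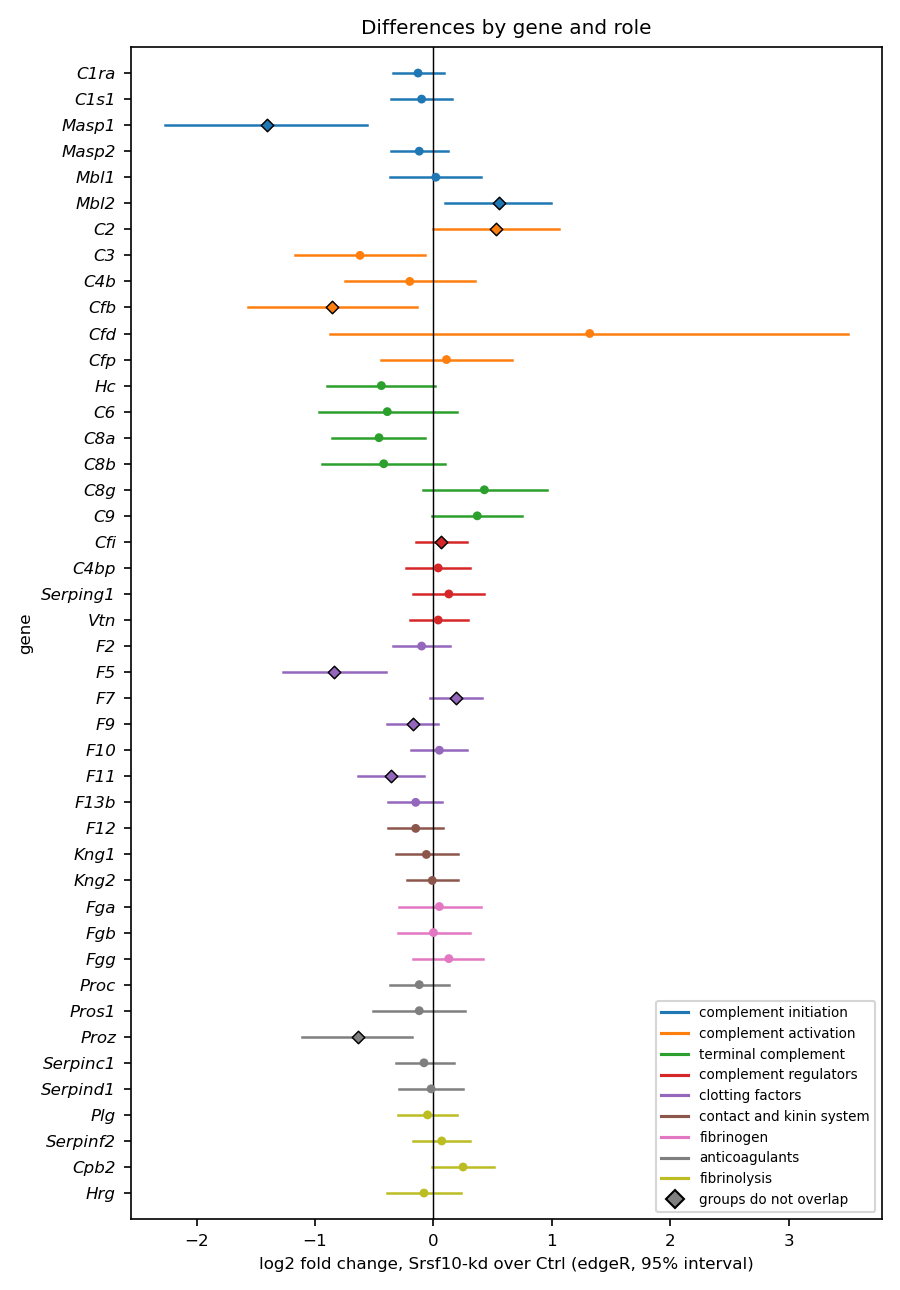
Log2 fold change of *Srsf10-kd* over *Ctrl* for the 44 genes with its 95% interval from edgeR, coloured by role, diamonds where the groups do not overlap. *Masp1* (-1.41), *Cfb* (-0.86) and *F5* (-0.84) lie farthest to the left, the regulator and fibrinogen genes sit at 0, and *Cfd* has the widest interval.

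Complement initiation held the member with the largest decrease in value. *Masp1*, which encodes the lectin pathway protease MASP-1 and its splice forms MASP-3 and MAp44, was 23.6, 25.4, 5.35 and 14.0 CPM in *Srsf10-kd*-labelled livers 1 to 4 and 45.6, 50, 37.7 and 49.0 CPM in *Ctrl* livers 1 to 4. Each *Srsf10-kd*-labelled liver was below each *Ctrl* liver, and liver 3 was far below the rest. The log2 fold change was -1.41 (SE 0.38, edgeR adjusted p = 0.127), and it was -1.12 without *Srsf10-kd*-labelled liver 3. The partner protease *Masp2* showed no such gap, at 201 ± 18.8 CPM (SD, n = 4) against 218 ± 14.2 CPM (SD, n = 4) and a log2 fold change of -0.12 (SE 0.11), although 54.9% of its exon bases overlap *Tardbp* on the other strand. As a result the ratio of *Masp1* to *Masp2* was between 0.0293 and 0.119 in the *Srsf10-kd*-labelled livers and between 0.182 and 0.244 in *Ctrl*, without overlap.

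The mannose-binding lectins, which recognise sugars on microbes, differed from each other. *Mbl2* was 371, 388, 609 and 440.2 CPM in the *Srsf10-kd*-labelled livers and 325, 339, 358 and 216 CPM in *Ctrl*. The groups did not overlap, with *Srsf10-kd*-labelled liver 3 the highest and *Ctrl* liver 4 the lowest, and the log2 fold change was 0.55 (SE 0.20, edgeR adjusted p = 0.177). *Mbl1* was 220.0 ± 38.5 CPM against 218 ± 45.6 CPM (SD, n = 4 each), a log2 fold change of 0.02 (SE 0.17, edgeR adjusted p = 0.964). The ratio of *Mbl2* to *Mbl1* averaged 2.05 ± 0.288 against 1.43 ± 0.239 (SD, n = 4 each), and the groups overlapped on it. The classical pathway proteases *C1ra* (-0.13, SE 0.10) and *C1s1* (-0.10, SE 0.12) lay close to 0.

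Among the activation components, *C3*, whose cleavage is the central step of all pathways, was 4580, 4303, 2242 and 3889 CPM in the *Srsf10-kd*-labelled livers and 5909, 5968, 4025 and 7192 CPM in *Ctrl*. The groups overlapped: *Ctrl* liver 3 fell inside the range of the *Srsf10-kd*-labelled livers, and *Srsf10-kd*-labelled livers 1 and 2 fell inside that of *Ctrl*. The log2 fold change was -0.62 (SE 0.25, edgeR adjusted p = 0.196) and ranged from -0.44 without *Srsf10-kd*-labelled liver 3 to -0.76 without *Ctrl* liver 3. *C4b*, the other thioester protein, was at 943 ± 201 CPM against 1081 ± 332 CPM (SD, n = 4 each), with a log2 fold change of -0.20 (SE 0.25) and overlapping groups. Of the 75-base stretches of *C4b*, 22.7% are shared with other genes, mainly *C4a*, so its reads may be split between them.

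*Cfb* and *C2* are neighbouring paralogs that supply the protease subunit of the alternative and of the classical and lectin pathway convertases. *Cfb* was 5.11, 4.17, 1.48 and 4.42 CPM in the *Srsf10-kd*-labelled livers and 6.16, 7.49, 8.35 and 5.49 CPM in *Ctrl*. It was lower in each *Srsf10-kd*-labelled liver, with a log2 fold change of -0.86 (SE 0.32, edgeR adjusted p = 0.180) that was -0.59 without liver 3. *C2* was 17.9, 16.3, 36.0 and 17.6 CPM in the *Srsf10-kd*-labelled livers and 15.9, 14.5, 14.5 and 15.7 CPM in *Ctrl*. The groups stood apart by little except in *Srsf10-kd*-labelled liver 3, and the log2 fold change of 0.53 (SE 0.24, edgeR adjusted p = 0.226) was 0.19 without it. In GENCODE M21 79.5% of the exon bases of *Cfb* and 46.9% of those of *C2* also belong to the read-through transcript *Gm20547* on the same strand or to *Zbtb12*, and counting that leaves out reads shared by genes lowers both levels.

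*Cfd*, the factor D protease that cleaves factor B, had the largest positive value and the largest spread of the set. It was 0.872, 7.28, 31.5 and 6.34 CPM in the *Srsf10-kd*-labelled livers and 11.5, 3.45, 3.02 and 0.492 CPM in *Ctrl*. The groups overlapped throughout, and the log2 fold change of 1.32 (SE 0.98, edgeR adjusted p = 0.423) was 0.06 without *Srsf10-kd*-labelled liver 3 and 2.31 without *Ctrl* liver 1. Of 8 adipocyte markers 6 were tested, 4 were higher and 2 lower in value, and 1 had an unadjusted p under 0.05 (21.8% of all tested genes did). The adipocyte markers summed to 73.3 to 99.3 CPM in the *Srsf10-kd*-labelled livers and 65.9 to 98.8 CPM in *Ctrl*. The defining marker *Adipoq* was at 0.233 CPM in *Srsf10-kd*-labelled liver 3, where *Cfd* was highest, and reached its own highest value, 2.21 CPM, in liver 4. The marker with that p, *Fabp4*, was also highest in liver 4 (45.5 CPM, and 33.1 CPM in liver 3). *Cidea*, like *Cfd*, was highest in *Srsf10-kd*-labelled liver 3 (7.43 CPM) and lowest in *Ctrl* liver 4 (0.825 CPM). The 2 markers lower in value were *Lipe* (log2 fold change -0.21) and *Plin4* (-0.34). The part of adipocytes in the value of *Cfd* was not tested. *Cfp*, which stabilises the alternative convertase, was 19.6 ± 7.26 CPM against 18.2 ± 3.86 CPM (SD, n = 4 each).

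**Figure D3:**
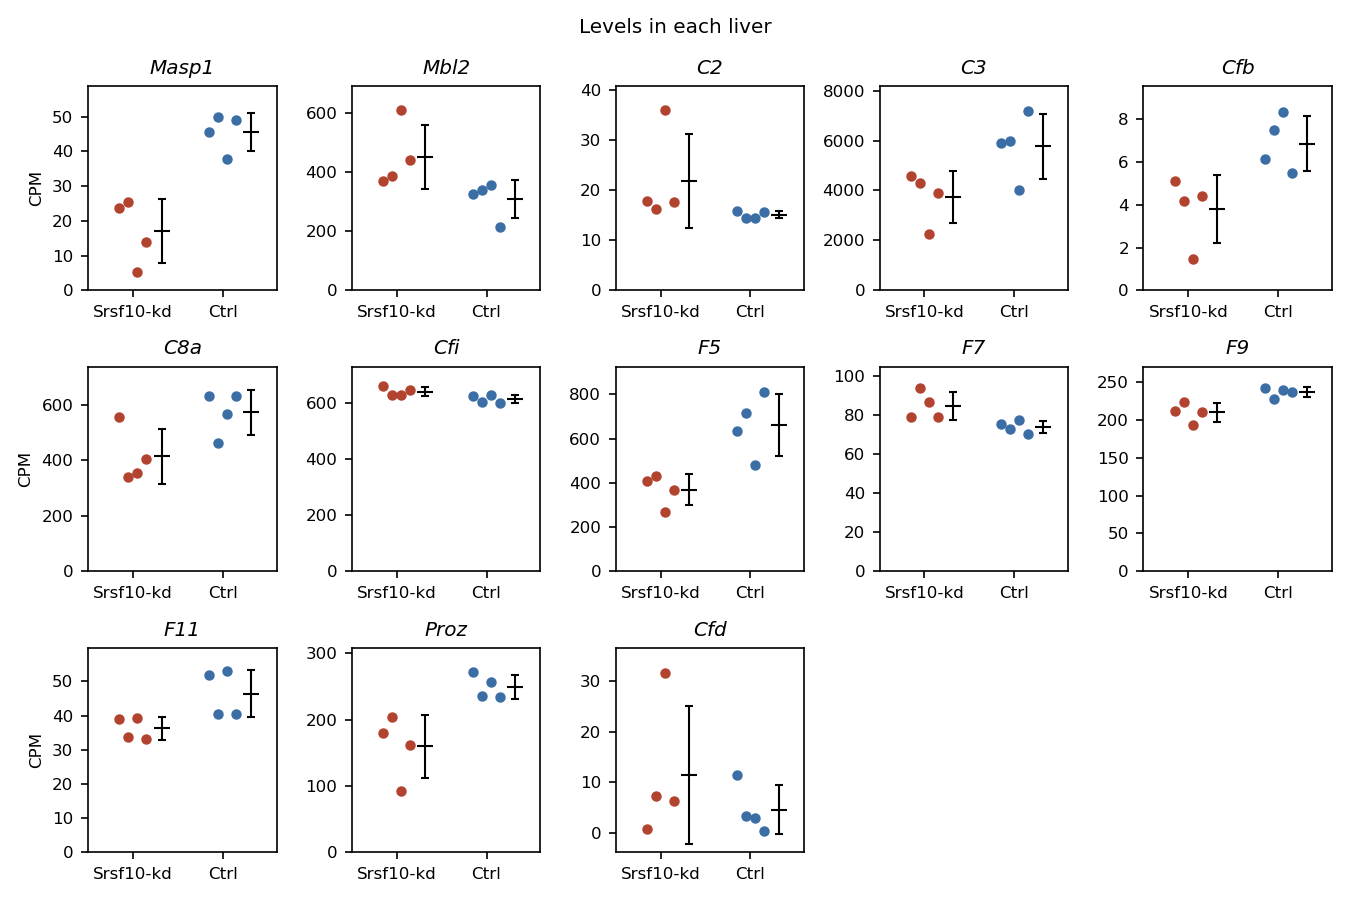
CPM in each liver (points, livers 1 to 4 from left to right within a group) with the mean and SD of 4 livers (bars), for the 12 members with an unadjusted p under 0.05 or non-overlapping groups and for *Cfd*. *Masp1*, *F5* and *Proz* separate by the widest gaps, *Cfi* and *F9* by narrow ones, and *C2* and *Cfd* have 1 high liver, *Srsf10-kd* 3.

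The terminal components, which assemble the membrane attack pore, split by gene. *Hc*, *C6*, *C8a* and *C8b* were lower in value, with log2 fold changes of -0.44, -0.39, -0.46 and -0.42, and *C8g* and *C9* were higher, at 0.43 and 0.37. The 3 chains of C8 therefore did not share a direction. *C8a* was 557, 341, 354 and 405 CPM in the *Srsf10-kd*-labelled livers and 629.6, 461, 565 and 631 CPM in *Ctrl* (SE 0.18, edgeR adjusted p = 0.187). *Srsf10-kd*-labelled liver 1 lay inside the range of *Ctrl*, and *Ctrl* liver 2 inside that of the *Srsf10-kd*-labelled livers. *C8g*, a lipocalin encoded apart from the other chains on chromosome 2, was 331, 363, 694 and 363 CPM against 342, 318, 374 and 261 CPM (SE 0.24, edgeR adjusted p = 0.293). Its excess sat in *Srsf10-kd*-labelled liver 3, and without that liver the log2 fold change of *C8g* was 0.12. The ratio of *C8g* to *C8a* was 0.595, 1.07, 1.96 and 0.895 in the *Srsf10-kd*-labelled livers and 0.544, 0.690, 0.663 and 0.414 in *Ctrl*, overlapping only through *Srsf10-kd*-labelled liver 1. The pore-forming *C9* was 533 ± 129.7 CPM against 412 ± 41.9 CPM (SD, n = 4 each).

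The 4 regulators, which limit complement on host surfaces or in plasma, all had log2 fold changes between 0.04 and 0.13. *Vtn*, vitronectin, was 1814 ± 108 CPM against 1762 ± 81.5 CPM (SD, n = 4 each; log2 fold change 0.04, SE 0.11, edgeR adjusted p = 0.835). *Serping1*, the C1 inhibitor, was 782 ± 66.8 CPM against 715 ± 105 CPM (0.13, SE 0.13, edgeR adjusted p = 0.560). *C4bp*, which binds C4b, had a log2 fold change of 0.04 (SE 0.12). *Cfi*, the protease that degrades C3b and C4b, was 660.2, 629.6, 628 and 648 CPM against 627, 604, 628 and 599.8 CPM. The groups of *Cfi* did not overlap before rounding, but the nearest livers were equal to 3 digits, and the log2 fold change was 0.06 (SE 0.10, edgeR adjusted p = 0.708).

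*F5*, the cofactor of factor Xa in making thrombin, was the clearest difference of the coagulation side. It was 408, 432, 270.1 and 368 CPM in the *Srsf10-kd*-labelled livers and 635, 714, 479 and 812 CPM in *Ctrl*. No liver overlapped, *Srsf10-kd*-labelled liver 3 was lowest, and *Ctrl* liver 3 was lowest of its group. The log2 fold change was -0.84 (SE 0.19, edgeR adjusted p = 0.115), with -0.71 to -0.96 over the fits that left out 1 liver. Prothrombin (*F2*), the substrate of that complex, was 1522 ± 63.7 CPM against 1631 ± 63.8 CPM (SD, n = 4 each), a log2 fold change of -0.10 (SE 0.11, edgeR adjusted p = 0.572). The ratio of *F5* to *F2* was 0.184 to 0.272 in the *Srsf10-kd*-labelled livers and 0.280 to 0.521 in *Ctrl*.

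The other clotting factors differed by less than *F5*. *F9* was 212, 224, 193 and 209.8 CPM against 242, 228, 239.7 and 236 CPM, lower in each *Srsf10-kd*-labelled liver with a log2 fold change of -0.17 (SE 0.09, edgeR adjusted p = 0.294). *F7*, which starts clotting with tissue factor, was 79.0, 93.7, 86.6 and 78.7 CPM against 75.4, 72.6, 77.4 and 70.3 CPM, higher in each *Srsf10-kd*-labelled liver with a log2 fold change of 0.19 (SE 0.10, edgeR adjusted p = 0.269). Its neighbour *F10* on chromosome 8 had a log2 fold change of 0.05 (SE 0.11). *F11*, a zymogen of the intrinsic pathway, was 39.1, 33.7, 39.2 and 33.1 CPM against 51.8, 40.5, 53.0 and 40.6 CPM, so the *Srsf10-kd*-labelled livers all lay below *Ctrl* (-0.36, SE 0.13, edgeR adjusted p = 0.168). The factor XIII carrier subunit *F13b* was at -0.15 (SE 0.10).

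In the contact and kinin system, *F12*, whose product starts contact activation, was 482 ± 15.8 CPM against 535 ± 43.6 CPM (SD, n = 4 each; -0.15, SE 0.10, edgeR adjusted p = 0.397). The kininogens, which carry bradykinin, were closely matched between groups. *Kng1* was 1564 ± 92.5 CPM against 1628 ± 154 CPM (-0.06, SE 0.12, edgeR adjusted p = 0.782; SD, n = 4 each), and *Kng2* was 231 ± 10.6 CPM against 233 ± 13.6 CPM (-0.01, SE 0.10, edgeR adjusted p = 0.966). The ratio of *Kng1* to *Kng2* was 6.76 ± 0.233 and 6.99 ± 0.278 (SD, n = 4 each). Of their 75-base stretches 9.77% and 10.8% are shared, mainly with each other.

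Fibrinogen, the substrate of the clot, is a dimer of Aα, Bβ and γ chains from 3 linked genes on chromosome 3, those whose promoters are printed above. *Fga* was 3773, 2940, 2449 and 3118 CPM in the *Srsf10-kd*-labelled livers and 3347, 2903, 2890 and 2705 CPM in *Ctrl* (log2 fold change 0.05, 95% interval -0.29 to 0.40). *Fgb* was 3695, 3046, 2829 and 2855 CPM against 3327, 2746, 2975 and 3337 CPM (0.00, interval -0.30 to 0.31). *Fgg* was 2912, 2274, 2349 and 2355 CPM against 2526, 2055, 2172 and 2315 CPM (0.13, interval -0.17 to 0.42). For all 3, *Srsf10-kd*-labelled liver 1 was the highest of the 8 and the groups overlapped. The edgeR adjusted p were 0.853, 0.987 and 0.572. The ratio of *Fgb* to *Fgg* was 1.26 ± 0.0626 against 1.37 ± 0.0548 (SD, n = 4 each), overlapping only through *Srsf10-kd*-labelled liver 2. That of *Fga* to *Fgg* was 1.24 ± 0.132 against 1.31 ± 0.102, and that of *Fga* to *Fgb* was 0.986 ± 0.0957 against 0.961 ± 0.106.

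Of the 5 anticoagulants, *Proz* stood out. Protein Z, its product, is the cofactor of an inhibitor of factor Xa. It was 180.2, 204, 93.1 and 162 CPM in the *Srsf10-kd*-labelled livers and 271, 236, 257 and 234 CPM in *Ctrl*. Again no liver overlapped, with *Srsf10-kd*-labelled liver 3 lowest, and the log2 fold change was -0.64 (SE 0.21, edgeR adjusted p = 0.152), or -0.46 without that liver. *F7*, *F10* and *Proz* lie next to each other on chromosome 8, and the ratio of *Proz* to *F10* was 0.249 to 0.566 in the *Srsf10-kd*-labelled livers and 0.643 to 0.793 in *Ctrl*. Antithrombin (*Serpinc1*) was 1802 ± 44.7 CPM against 1901 ± 134 CPM (SD, n = 4 each; -0.08, SE 0.11, edgeR adjusted p = 0.683), with 34.4% of its exon bases overlapping *Zbtb37* on the other strand. *Proc*, *Pros1* and *Serpind1*, for protein C, protein S and heparin cofactor II, had log2 fold changes of -0.12, -0.12 and -0.02.

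The fibrinolysis genes lay near 0. *Plg*, plasminogen, was 1953 ± 118 CPM against 2025 ± 118 CPM (SD, n = 4 each; -0.05, SE 0.11, edgeR adjusted p = 0.795). Its inhibitor α2-antiplasmin (*Serpinf2*) was at 0.07 (SE 0.11) and histidine-rich glycoprotein (*Hrg*) at -0.08 (SE 0.14). *Cpb2*, the carboxypeptidase that trims plasmin's binding sites from fibrin, was 301, 287, 298 and 237 CPM against 253, 213, 249 and 229 CPM. *Srsf10-kd*-labelled liver 4 fell inside the range of *Ctrl*, and *Ctrl* livers 1 and 3 fell inside that of the *Srsf10-kd*-labelled livers. The log2 fold change of *Cpb2* was 0.25 (SE 0.12, edgeR adjusted p = 0.241).

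*Srsf10-kd*-labelled liver 3 was the highest of the 8 livers for 7 members (*Mbl2*, *C2*, *Cfd*, *Cfp*, *C8g*, *C9* and *Vtn*) and the lowest for 12 (*Masp1*, *Masp2*, *C3*, *Cfb*, *Hc*, *F2*, *F5*, *F9*, *F13b*, *Fga*, *Pros1* and *Proz*). It was thus at an extreme for 43.2% of the set, and for 56.7% of all tested genes. *Ctrl* liver 4 was at an extreme for 38.6% of the set (41.2% of all genes), and *Ctrl* liver 3 for 36.4% (27.2% of all genes). *Ctrl* liver 3 was highest for 13 members (29.5%, against 12.6% of all genes), among them both kininogens, *F2*, *F10*, *F11*, *F12* and *Serpinc1*. It was lowest for 3 members (6.82%, against 14.6% of all genes).

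**Figure D4:**
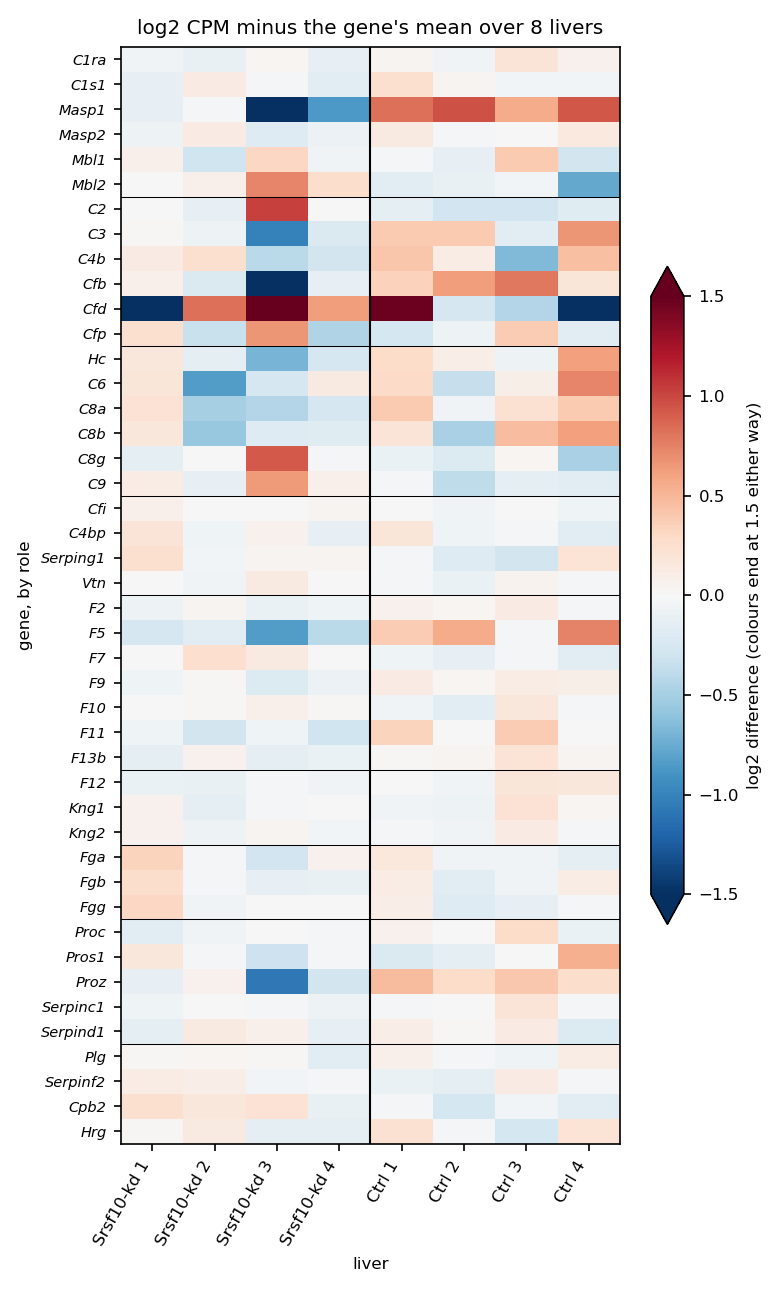
Log2 CPM of each gene minus its mean over the 8 livers, red above and blue below, genes by role and livers by group, with colours ending at 1.5. In *Srsf10-kd* 3 the darkest cells are those of *Masp1*, *Cfb* and *Proz* (low) and of *Cfd* and *C2* (high), and the rows of the kininogens, *Vtn*, *F2* and *Plg* are pale.

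Log2 fold changes in these libraries were lower for longer transcripts, in the set as in all genes. Over the 44 members Spearman's rho between length and log2 fold change was -0.67 (Pearson's r with log2 length -0.71), and over 15429 genes with a length rho was -0.51; genes of a library are not independent points. Of the 13 members with transcripts over 3 kb 11 were lower and the median was -0.20 on the log2 scale, and of 7970 genes of that length 68.2% were lower and the median was -0.13. The 31 shorter members had a median of 0.02, against 0.18 for 7459 shorter genes. *Masp1* (5345 bases), *C3* (5136 bases) and *F5* (7430 bases) are among the long ones, and *Mbl2* (1089 bases), *C8g* (1150 bases) and *Cfd* (922 bases) among the short.

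Once the length trend was taken out of every library, 11 members had an unadjusted p under 0.05, against 15.5% of all genes, and all 11 were lower. These were *Masp1*, *C3*, *Cfb*, *C8a*, *F5*, *F9*, *F11*, *F13b*, *F12*, *Proc* and *Proz*. The split between directions moved from 18 higher and 26 lower to 11 higher and 33 lower, and the median from -0.07 to -0.10, where that of all genes was 0.00. *Mbl2* was then at 0.27 and *C8g* at 0.14, while *F5* was at -0.57 and *Masp1* at -1.26. No member passed an adjusted p of 0.05 in this fit. The trend was fitted on all genes, and over the members Spearman's rho between length and log2 fold change was still -0.33. The values of this fit are thus not free of length within the set. Shares of all genes by direction are not given for this fit. The part of transcript length in the differences between groups was not tested further.

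Other genes of the same systems were read from lists of receptors, regulators and processing factors. Of 31 other complement genes 28 were tested, 15 higher and 13 lower, and 3 had an unadjusted p under 0.05 (1 higher, 2 lower), where 21.8% of all tested genes did. *Colec10*, a collectin of the lectin pathway, was 20.1 ± 4.01 CPM against 29.9 ± 5.45 CPM without overlap (SD, n = 4 each; log2 fold change -0.57, SE 0.17, edgeR adjusted p = 0.139). *C1qbp*, a mitochondrial protein that binds C1q, was 70.6 ± 13.8 CPM against 56.3 ± 2.58 CPM without overlap (0.33, SE 0.14, edgeR adjusted p = 0.207). Of 38 other coagulation genes 34 were tested, 20 higher and 14 lower, and 15 had an unadjusted p under 0.05 (8 higher, 7 lower), against the same 21.8%. None of either list passed an adjusted p of 0.05 in edgeR.

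The coagulation list holds the cargo receptor of *F5*. *Lman1*, which with *Mcfd2* carries factors V and VIII from the endoplasmic reticulum to the Golgi, was 193, 183, 176 and 178 CPM in the *Srsf10-kd*-labelled livers and 243, 259.7, 274 and 245 CPM in *Ctrl*. The groups were well separated, with a log2 fold change of -0.48 (SE 0.10, edgeR adjusted p = 0.0935, DESeq2 adjusted p = 8.71e-06). *Mcfd2*, named for its partner after its value was seen, was at 0.15 (SE 0.12). *F8*, the homologue of *F5* made by endothelial cells, was 16.3, 12.6, 10 and 9.23 CPM against 17.0, 20.5, 24.2 and 21.9 CPM, also without overlap (-0.79, SE 0.19, edgeR adjusted p = 0.115). Of 10 endothelial markers 6 had an unadjusted p under 0.05, 4 lower and 2 higher, where 21.8% of all tested genes did (10.6% lower, 11.2% higher). The endothelial markers summed to 328 to 399 CPM in the *Srsf10-kd*-labelled livers and 372 to 424 CPM in *Ctrl*. The part of endothelial cells in the value of *F8* was not tested.

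Transcription factors and signalling genes of liver were measured in the same samples: of 20 listed genes 8 were higher and 12 lower. An unadjusted p under 0.05 was found for 6 (2 higher, 4 lower), against 21.8% of all tested genes, and none passed an adjusted p of 0.05 in edgeR. *Hnf4a* was 653, 570.4, 444 and 588 CPM in the *Srsf10-kd*-labelled livers and 850.4, 829, 597 and 919 CPM in *Ctrl* (log2 fold change -0.50, SE 0.17, edgeR adjusted p = 0.155). *Ctrl* liver 3 lay inside the range of the *Srsf10-kd*-labelled livers, and *Srsf10-kd*-labelled liver 1 inside that of *Ctrl*. *Cebpb* was 183, 166, 246 and 184 CPM against 154, 123, 89.1 and 112 CPM, without overlap (0.71, SE 0.18, edgeR adjusted p = 0.119), and *Cebpd* was at 0.46 (SE 0.13, edgeR adjusted p = 0.132). *Il6st*, the signalling subunit of the IL-6 receptor, was at -0.68 (SE 0.16, edgeR adjusted p = 0.115). *Cebpa* was at -0.03 (SE 0.16) and *Stat3* at -0.02 (SE 0.15). These 6 were named after their values were seen. The 12 members with C/EBP letters in their windows had log2 fold changes from -0.62 (*C3*) to 0.37 (*C9*), with *Fga* at 0.05 and *Fgb* at 0.00.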

How the data were processed

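Poly(A)-enriched, directional, paired-end libraries of 8 livers were sequenced. The authors mapped them with STAR 2.7.7a on GRCm38 and deposited raw counts per Ensembl gene, 1 column per liver; the annotation release, the strand setting and read filters are not given in the sources used here. The labels number the livers within a group and do not state that each came from a different mouse, so p-values measure the spread between these samples.

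Counts were tested with edgeR 4.0.16 (R 4.3.3): TMM normalisation, filterByExpr, glmQLFit and glmQLFTest on the group, with Benjamini-Hochberg adjustment over all 15491 genes tested. SE is the absolute log2 fold change divided by the square root of the F statistic. Alternatives were DESeq2 1.42.0, limma-voom 3.58.1 with sample quality weights, other scalings and filters (at least 10 counts in every liver, or none), a replicate block, removal of each library's lowess trend (span 0.5) on transcript length or GC content, and leaving out each liver. Tests were checked on simulated counts with 200 changed genes at a log2 change of 1.5. At an adjusted p under 0.05 edgeR recovered 177 with 5 false calls. DESeq2 recovered 181 with 28 false calls, and limma-voom 176 with 4. CPM per kb uses the transcript with the longest coding sequence in GENCODE M21, to which 45143 of 45706 identifiers matched. Single values were compared by exact two-sided permutation tests. The closest pair of libraries differed by far more than sampling noise (chi-square per degree of freedom 50.7). Correlations of same-numbered livers' deviations were -0.18, 0.21, 0.27 and 0.22 for numbers 1 to 4. Pairing required a correlation over 0.1 for each number, which number 1 did not meet, and no label gives a shared litter, batch or day, so the livers were not treated as pairs.

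The members and lists were chosen with earlier results of these data known. Members are described in full if their unadjusted p was under 0.05 or their groups did not overlap, if they had the highest level per kb or the largest difference in their role (9 roles), or if they were fibrinogen, kininogen or mannose-binding lectin genes. Genes of the other lists are named at an adjusted p under 0.05, or, for the other complement and coagulation lists, at an unadjusted p under 0.05 without overlap; some are not reported here. Cell type markers, transcription factors, *Mcfd2* and *Mug2* are named outside this rule, after their values were seen. Overlap of the exons of 1 gene with those of others was computed from GENCODE M21: 4 members had over 30% of exon bases in another gene, *Masp2*, *C2*, *Cfb* and *Serpinc1*, and their counts are uncertain. Shared 75-base stretches also make *C1ra* (42.4%) and *C1s1* (24.8%) uncertain. Promoter windows are from RefSeq.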

Additional observations from a re-analysis of the deposited data

Results flagged for a closer look

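Within groups of 4 livers, 7 of the 88 sets of values (44 genes, 2 groups) had 1 liver whose gap to the next passed Dixon's 95% critical value when divided by the whole range. Chance gives such a gap in about 1 of 20 sets, which is 4.4 of 88. In *Srsf10-kd* liver 3, *C2* was at 36 CPM (the other 3 livers 16.3 to 17.9) and *C8g* was at 694 CPM (331 to 363). In *Ctrl* liver 3, *F13b* was at 240 CPM (211 to 216), *Kng2* was at 253 CPM (223 to 228) and *Serpinc1* was at 2101 CPM (1821 to 1849). *Fgg* was at 2912 CPM in *Srsf10-kd* liver 1 (2274 to 2355), and *Plg* was at 1776 CPM in *Srsf10-kd* liver 4 (2010 to 2017). The causes were not tested.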

How the results depend on the processing

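The count of genes past an adjusted p of 0.05 was 11 in edgeR, 46 with no filter on low counts, 824 in DESeq2, 1814 in limma-voom, 59 with the replicate block, 6 with the length trend removed, and 0 to 544 when 1 liver was left out, with 64 without *Srsf10-kd* liver 3 and 544 without *Ctrl* liver 3. The members past it, 0 in edgeR, were 2 in DESeq2, 4 in limma-voom, 1 with the replicate block (*F5*, adjusted p = 0.0486), and 0 to 1 when 1 liver was left out. The members with an unadjusted p under 0.05, 9 in edgeR, were 14 with the replicate block and 5 to 11 when 1 liver was left out. The members higher in *Srsf10-kd*, 18 in edgeR, were 11 with the length trend removed. The median log2 fold change stayed negative in all settings, -0.03 to -0.10. Same-numbered livers share only a number. The causes were not tested.

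Of 27 genes described in full, 16 kept their direction in all 17 alternatives, *Masp1*, *F5*, *Cfb*, *Proz*, *C3*, *Mbl2* and *C2* among them. The other 11, all with an edgeR log2 fold change within 0.13 of 0 or, for *Cfd*, a wide interval, changed sign in 24 fits. With the length trend removed *Cfi* was at -0.05, *Fgg* at -0.03, *Mbl1* at -0.17, *Serping1* at -0.03, *Vtn* at -0.12 and *Serpinc1* at 0.07. In limma-voom *Cfd* was at -0.17, *Kng1* at 0.02 and *Kng2* at 0.02, and with the GC trend removed *Kng2* was at 0.01. *Fgb* was at -0.01 with no filter and -0.01 in DESeq2. Leaving out 1 liver gave *Fga* -0.06 to 0.15, *Fgb* -0.09 to 0.05, *Kng1* -0.09 to 0.01, *Kng2* -0.03 to 0.03 and *Mbl1* -0.09 to 0.17. The lowest level of any member in a liver was that of *Cfd* in *Ctrl* liver 4, 0.492 CPM, and that of *Cfb* was 1.48 CPM or more.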

Other observations

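Fibrinolysis also depends on activators and receptors made by other cells than hepatocytes. *Plat*, tissue plasminogen activator, was 18.9, 17.6, 20.6 and 21.6 CPM in *Srsf10-kd*-labelled livers and 10.2, 11.4, 16.9 and 9.83 CPM in *Ctrl*, without overlap (log2 fold change 0.70, SE 0.17, edgeR adjusted p = 0.116). The urokinase receptor *Plaur* (0.66, SE 0.19) and the plasminogen-binding annexin *Anxa2* (0.33, SE 0.12) were higher, both without overlap, with edgeR adjusted p of 0.133 and 0.176. Thrombomodulin (*Thbd*) was at 0.35 (SE 0.13), the kinin-degrading *Ace* at 0.50 (SE 0.16) and the thrombin receptor *F2rl3* at 1.02 (SE 0.33) on a level of 0.262 CPM against 0.128 CPM.

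Of the broad protease inhibitors of the macroglobulin family, *Mug1* and *Pzp* were lower without overlap, while *Mug2* was lower in value with overlapping groups (log2 fold change -0.49, SE 0.24, edgeR adjusted p = 0.253). *Mug1* was 3393, 2793, 1947 and 2856 CPM against 4685, 4487, 3929 and 6401 CPM (-0.83, SE 0.21, edgeR adjusted p = 0.116). *Pzp* was 4486, 3465, 2427 and 3680 CPM against 5221, 5154, 4510 and 5764 CPM (-0.55, SE 0.19, edgeR adjusted p = 0.160). *Adamts13*, which cleaves von Willebrand factor, was at -0.46 (SE 0.17, edgeR adjusted p = 0.171). Among markers of other cells, 6 of 6 biliary markers were higher, 4 with an unadjusted p under 0.05. Of all tested genes 21.8% were under that limit, 11.2% higher and 10.6% lower. The summed biliary level was 46.9 to 69.2 CPM against 31.8 to 39.3 CPM. Kupffer cell markers had 1 of 10 with an unadjusted p under 0.05 and stellate cell markers 1 of 10, against the same 21.8%. Of 9 neutrophil markers 5 were tested and 2 had an unadjusted p under 0.05, and of 7 platelet markers 3 were tested and 1 did; the summed platelet level was 2.77 to 4.10 CPM over all livers.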
